A study of Mus musculus with 8 samples.

Results

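The subject here is a set of 46 genes whose products carry cargo between the endoplasmic reticulum (ER) and the Golgi apparatus: the COPII and COPI vesicle coats, the GTPases that recruit them, cargo receptors, KDEL receptors, and the SNAREs and tether of this step. Members were taken by gene symbol. All 46 had a row among the 23284 genes of the files, and all 46 were among the 14116 genes tested. RNA was sequenced from Tomato-positive cells sorted from mouse pancreas at embryonic day 17, with 4 libraries per genotype. KO libraries (replicates 8, 9, 17 and 24) came from mice labelled Neurod1floxed/floxed, and Het libraries (replicates 6, 7, 13 and 19) from mice labelled Neurod1floxed/wt. Every library also carried Neurog3Cre and RosaTomato on the strain written as C56BL/J, so the Het group, titled as the control, had a floxed allele and Cre too. Neurog3-driven Cre acts in the precursors of endocrine cells, and the sort therefore holds all islet lineages together. The comparison asks how losing the second Neurod1 allele, which encodes a basic helix-loop-helix factor of endocrine cells, alters transcripts there.

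Secretory proteins leave the ER in COPII vesicles. The GTPase Sar1, loaded by the exchange factor Preb (Sec12), brings the Sec23-Sec24 inner coat to the membrane at sites organised by Sec16, Sec24 selects the cargo, and Sec13 with Sec31 builds the outer cage. Receptors such as Lman1, Surf4 and the p24 (Tmed) proteins link lumenal cargo to the coat. COPI, a coatomer recruited by Arf GTPases, returns receptors and escaped ER proteins, the latter bound by KDEL receptors. Endocrine cells send prohormones through this route before storing them in granules.

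The deposited counts came to between 10.35 M and 16.1 M per library. CPM below is the count scaled to the TMM-adjusted library size, and log2 fold changes are KO over Het. Neurod1 stood at 133 to 210.5 CPM in Het and at 2.55 to 22.2 CPM in KO (edgeR quasi-likelihood log2 fold change −3.40 with SE 0.52, adjusted p = 0.0165). The 13 endocrine markers, Neurod1 and hormones among them, summed to 18323 to 34768 CPM in KO and 57925 to 81378 CPM in Het, without overlap, and their part in the members' differences was not tested. The 13 acinar markers summed to 10781 to 48071 CPM across all 8 libraries. The 4 Y-linked genes, present where cells are from males, summed to 414 CPM in Het replicate 7 and to 427 to 497 CPM in KO replicates 8, 9 and 24, and to at most 0.442 CPM in the other 4 libraries, so sex was partly tied to genotype. KO replicate 8 stood apart. Its 11 mesenchyme markers summed to 9361 CPM, against 264 to 1170 CPM in the other 7, and the 6 leukocyte markers to 372 CPM against 13.3 to 188 CPM. Fits with an acinar or a mesenchyme marker score as a covariate are given below, and the part of these other cells in the results was not tested. In bulk RNA, fewer cells of a type and less RNA per cell cannot be told apart. The labels do not state that replicates are separate animals, so p-values measure the spread between these libraries, which may be technical.

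No member passed the test between genotypes. At an adjusted p under 0.05 edgeR called 0 of 46 members lower and 0 of 46 higher, where it called 0.68% of all tested genes lower and 0.34% higher. Most point estimates were negative. Of the members, 39 had a negative log2 fold change and 7 a positive one, with a median of −0.23, whereas 46.6% of all tested genes were negative and their median was 0.03. Scaled by total counts, 34 were negative, and Sec16a, Sec24c, Tmed4, Ergic3 and Copz2, all near 0, turned positive. Before adjustment 14 members had p under 0.05, all with lower KO means, and of all tested genes 5.80% did so in that direction. In 9 of the 46 every KO library lay below every Het library, an arrangement found in 4.48% of all tested genes. In none of the 46 did every KO library lie above every Het library, which held for 3.55% of all tested genes.

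**Figure D1:**
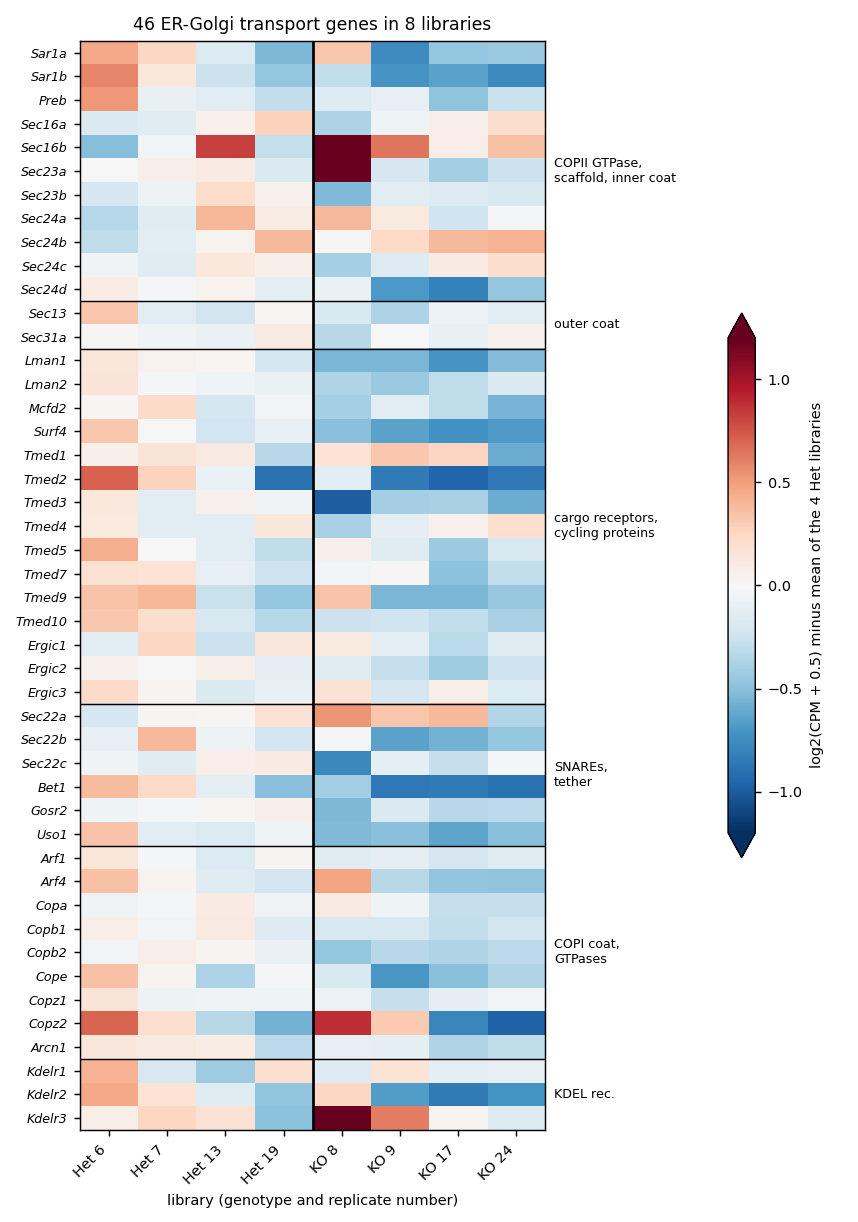
Level of each of the 46 genes (rows, ordered by role) in the 8 libraries (columns), as log2(CPM + 0.5) minus the mean of the 4 Het libraries; blue is lower, red is higher, and values beyond the ends of the scale take its end colours. Lman1, Surf4 and Uso1 are blue in all 4 KO libraries, Het replicate 6 is the highest library for 22 genes, and Sec16b, Sec23a and Kdelr3 are red in KO replicate 8.

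The count of called members depended on 1 library and on the tool. Without KO replicate 8, edgeR called 4 members lower, Lman1, Surf4, Bet1 and Sec24d (adjusted p = 0.0409, 0.0308, 0.0422 and 0.0320), against 1.31% of all genes. Without any other single library it called none. DESeq2 on all 8 libraries called 6 lower (Lman1, Surf4, Uso1, Tmed3, Bet1 and Copb2) against 2.08% of all genes, and none higher against 1.61%. Limma-voom with sample quality weights also called 6, with Sec24d in place of Copb2, against 2.15% of all genes. Plain limma-voom called Lman1 alone against 0.85%, as did edgeR with a filter of 2 CPM in 4 libraries against 0.853%. In the authors' deposited table none of the 46 had an adjusted p under 0.05, against 0.698% of its genes called lower, and Surf4 had the smallest adjusted p there, 0.0721.

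The cargo receptor genes Lman1 and Surf4 held the smallest p-values, followed by the tether gene Uso1. Of 15 receptors and cycling membrane proteins, 14 had a negative log2 fold change (median −0.30). Before adjustment 6 had p under 0.05, all with lower KO means, and 5 had every KO library below every Het library. Over all tested genes these shares were 5.80% and 4.48%. Lman1 encodes ERGIC-53, the lectin that carries glycoproteins out of the ER together with its partner Mcfd2. Its Het libraries, in the order of replicates 6, 7, 13 and 19, held 564, 526, 519.6 and 440.2 CPM, and its KO libraries, in the order 8, 9, 17 and 24, held 349, 349.6, 313 and 357 CPM. The genotypes did not overlap, and the KO libraries lay close together. The log2 fold change was −0.58 (SE 0.12, adjusted p = 0.0606, edgeR), a KO level of 0.668 times Het with a 95% interval of 0.552 to 0.807. Mcfd2 stood at 105 to 143 CPM in Het and 82.7 to 111 CPM in KO, which overlapped (log2 fold change −0.35, adjusted p = 0.366).

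Surf4, the receptor for soluble secretory cargo with no lectin domain, held 502, 403, 343 and 376 CPM in Het and 284, 257, 243 and 251 CPM in KO. All 4 KO libraries were again below all Het libraries, and Het replicate 6 was the highest. By edgeR the log2 fold change came to −0.65 ± 0.14 (SE), with an adjusted p of 0.0665. Exons of Surf2 overlap those of Surf4 on the opposite strand in the GENCODE vM21 annotation, and the amplification kit does not mark strand, so reads from this stretch cannot be assigned to either gene with certainty. Lman2, the related lectin VIP36, held 310.4, 274, 269 and 264 CPM in Het and 216, 204, 226 and 248 CPM in KO. There too the groups did not overlap, with a smaller difference (log2 fold change −0.32, SE 0.12, adjusted p = 0.310).

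Of the 8 p24 family genes, which encode cargo adaptors that cycle between ER and Golgi, Tmed3 had the smallest p. It held 235, 195, 222 and 208 CPM in Het and 108, 162, 164 and 142 CPM in KO. Its groups did not overlap, and KO replicate 8 was the lowest (log2 fold change −0.58, SE 0.15, adjusted p = 0.132). Tmed2 held 233, 171, 134 and 76.1 CPM in Het and 129.8, 78.9, 73.1 and 78.3 CPM in KO. The Het libraries spread widely, with replicates 6, 7 and 13 above every KO library and replicate 19 within the KO range (log2 fold change −0.77, SE 0.31, adjusted p = 0.357). Without Het replicate 6 it was −0.50, and with the share of the ribosomal RNA gene Rn45s as a covariate −0.46. Tmed10, the p24 gene with the highest level per length in Het, stood at 239.7 to 380.5 CPM in Het and at 233 to 257 CPM in KO, an overlap (adjusted p = 0.459). Tmed1 (0.07), Tmed4 (−0.05), Tmed5 (−0.20), Tmed7 (−0.20) and Tmed9 (−0.30) had log2 fold changes with adjusted p from 0.649 to 0.950. The cycling proteins Ergic1 (−0.12), Ergic2 (−0.28) and Ergic3 (−0.03) had adjusted p from 0.414 to 0.963. Ergic2 was the 1 of these 3 whose groups did not overlap, at 84.2 to 96.1 CPM in Het and 67.7 to 82.4 CPM in KO.

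**Figure D2:**
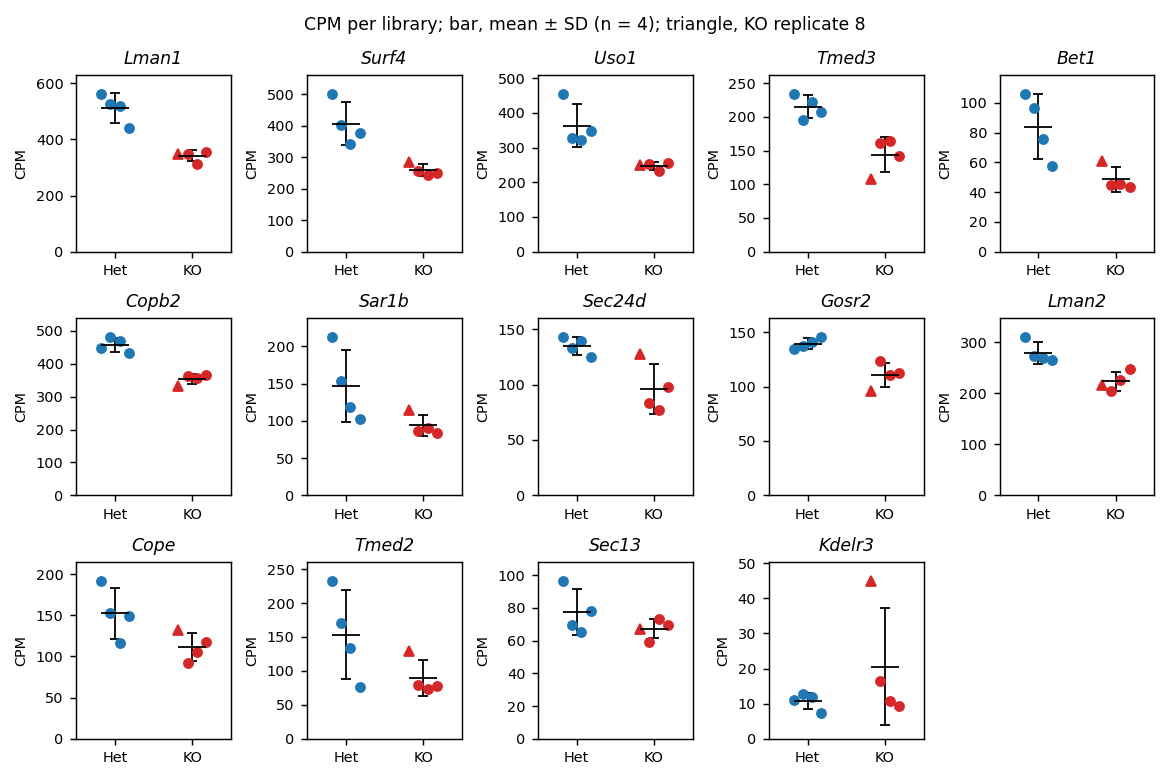
CPM in each library (points; triangle, KO replicate 8) with the mean ± SD of each genotype (n = 4) for the 12 members with the smallest p and the first of each remaining role; each axis starts at 0. The genotypes do not overlap for Lman1, Surf4, Uso1, Tmed3, Copb2, Gosr2 and Lman2, and they overlap for Bet1, Sar1b, Sec24d, Cope, Tmed2, Sec13 and Kdelr3.

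SNAREs drive fusion of arriving vesicles, and the tether holds them first. Of these 6 genes, 5 had a negative log2 fold change (median −0.38). Before adjustment 4 had p under 0.05, all with lower KO means, against 5.80% of all tested genes. In 2 every KO library lay below every Het library, against 4.48% of all tested genes. Uso1, which encodes the tether p115, held 455, 328, 321 and 348 CPM in Het and 248, 254, 231 and 254 CPM in KO. The KO libraries formed a narrow band under every Het library (log2 fold change −0.56, SE 0.14, adjusted p = 0.114, edgeR). Bet1, a SNARE of ER-to-Golgi vesicles, held 106, 96.6, 75.9 and 57.5 CPM in Het and 61.2, 44.8, 45.2 and 43.8 CPM in KO. Only KO replicate 8 reached into the Het range, above Het replicate 19. The log2 fold change of Bet1 was −0.79 ± 0.21 (SE), with an adjusted p of 0.140 by edgeR. Without KO replicate 8 it was −0.93.

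Gosr2, or membrin, a SNARE that pairs with Bet1 on this route, held 134, 137, 141 and 145 CPM in Het and 96.0, 124, 111 and 112 CPM in KO. Its Het libraries differed little from each other and all lay above the KO libraries (log2 fold change −0.33, SE 0.12, adjusted p = 0.304). Sec22b, the SNARE that acts in both directions between ER and Golgi, overlapped between genotypes, at 145 to 223 CPM in Het and 108 to 167 CPM in KO (adjusted p = 0.386). Its relatives Sec22a (log2 fold change 0.26) and Sec22c (−0.27) were at 15.99 to 32.5 CPM over all libraries, with adjusted p of 0.690 and 0.632.

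Within COPII, the point estimates went in both directions. Of 11 genes for the GTPase, its exchange factor, the exit-site scaffold and the inner coat, 7 had a negative and 4 a positive log2 fold change (median −0.05). Before adjustment 2 had p under 0.05, each with a lower KO mean, against 5.80% of all tested genes. The genotypes overlapped in all 11. Sar1b, the Sar1 isoform tied to lipoprotein export, held 212, 154, 118 and 103 CPM in Het and 115, 86.3, 90.3 and 82.9 CPM in KO. KO replicate 8 lay above Het replicate 19, and the other KO libraries below all Het libraries (log2 fold change −0.65, SE 0.22, adjusted p = 0.267, edgeR, and −0.42 without Het replicate 6). Its paralogue Sar1a stood at 314 to 625 CPM in Het and 270.4 to 574 CPM in KO, with a log2 fold change of −0.33 (adjusted p = 0.665).

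Sec24d, a cargo-selecting coat subunit, held 143, 133, 139 and 125 CPM in Het and 128, 83.2, 76.6 and 97.6 CPM in KO. Without KO replicate 8, which lay within the Het range, the genotypes would not have overlapped. The log2 fold change was −0.49 (SE 0.17, adjusted p = 0.267), and −0.66 without that library. The other Sec24 genes had point estimates near or above 0, with Sec24a at 0.05, Sec24b at 0.25 and Sec24c at −0.05 on the log2 scale and adjusted p from 0.589 to 0.945. Sec16a (−0.03) and Preb (−0.28) had adjusted p of 0.960 and 0.584. The outer coat genes Sec13 and Sec31a had log2 fold changes of −0.20 and −0.09. Sec13 held 96.7, 69.5, 65.5 and 78.1 CPM in Het and 67.2, 59.2, 73.0 and 69.7 CPM in KO, with genotypes that overlapped (adjusted p = 0.651). Without Het replicate 6, the highest library, its log2 fold change was −0.079.

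All 9 genes of COPI and its GTPases had a negative log2 fold change, most of them small (median −0.16), although Copz2, at −0.02, was positive at 0.035 when libraries were scaled by total counts. In 2 of the 9 every KO library lay below every Het library, against 4.48% of all tested genes. Before adjustment 2 had p under 0.05, each with a lower KO mean, against 5.80% of all tested genes. Copb2, the β′ subunit of the coatomer, held 448, 482, 469.7 and 433 CPM in Het and 332, 363, 355 and 367 CPM in KO. Each genotype was tight and the pair did not overlap (log2 fold change −0.37, SE 0.11, adjusted p = 0.188, edgeR). Copb1, the β subunit, also did not overlap, at 240.1 to 288 CPM in Het and 217 to 234 CPM in KO (log2 fold change −0.23, adjusted p = 0.449). Cope, the ε subunit, held 192, 153, 116 and 149 CPM in Het and 132, 92.1, 106 and 117 CPM in KO, where Het replicate 13 fell among the KO libraries (log2 fold change −0.45, SE 0.18, adjusted p = 0.340). Copa (−0.12), Arcn1 (−0.23), Copz1 (−0.12), Copz2 (−0.02), Arf1 (−0.16) and Arf4 (−0.16) had adjusted p from 0.549 to 0.990.

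KDEL receptors return ER chaperones that have escaped to the Golgi. Kdelr2, the receptor gene with the highest level per length, held 577, 470.2, 379 and 304 CPM in Het and 498, 264, 234 and 255 CPM in KO. KO replicate 8 lay among the Het libraries and the other 3 KO libraries below all of them (log2 fold change −0.47, SE 0.27, adjusted p = 0.523). Kdelr1 overlapped throughout, at 54.0 to 96.9 CPM in Het and 65.1 to 81.4 CPM in KO (adjusted p = 0.905). Kdelr3 held 11.1, 12.7, 12.01 and 7.40 CPM in Het and 45.03, 16.5, 10.9 and 9.43 CPM in KO. The high KO mean came from KO replicate 8, and the other KO libraries overlapped the Het libraries (log2 fold change 0.92, SE 0.48, adjusted p = 0.473, edgeR, and 0.17 without KO replicate 8). Exons of Ddx17 on the opposite strand overlap Kdelr3 in GENCODE vM21.

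**Figure D3:**
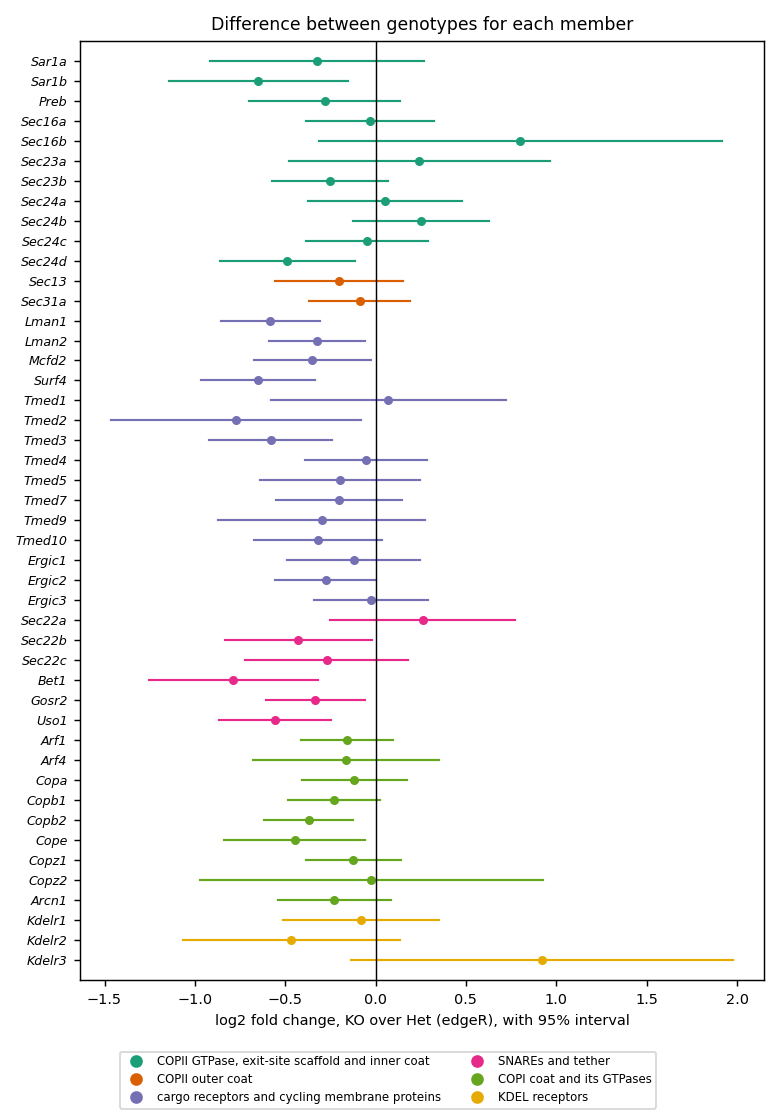
Log2 fold change of KO over Het from edgeR (points) with its 95% interval (lines, not adjusted for the number of genes) for all 46 genes, coloured by role; the vertical line marks no difference. The interval lies below 0 for 14 genes, among them Lman1, Surf4, Uso1, Tmed3 and Bet1, and is widest for Sec16b and Kdelr3.

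A missed threshold does not show equal levels. The 95% interval of the fold stayed within 1.5-fold in either direction for 17 of the 46 members, including Sec24c (0.766 to 1.22 times Het), Sec31a (0.775 to 1.14) and Copz1 (0.765 to 1.10). For 23 of 46 it reached a fall of 1.5-fold or more. Per kilobase of transcript, using GENCODE vM21 lengths, mean Het levels ran from 295 ± 64.0 CPM for Tmed10 and 236 ± 64.5 for Kdelr2 down to 7.66 ± 1.67 for Kdelr3, 7.25 ± 0.580 for Sec22c and 1.02 ± 0.510 for Sec16b (SD, n = 4). The next in order after Kdelr2 were Arf4 (222 ± 41.3) and Arf1 (189 ± 16.3), and each neighbour in the order Tmed10, Kdelr2, Arf4, Arf1 differed from the next by less than the larger SD of the pair. Sec22c and Kdelr3 also differed by less than their spread, and Sec16b lay below both.

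Paralogue pairs, whose ratio within a library does not depend on scaling, did not separate after correction. Of 8 log2 ratios, 1 had genotypes that did not overlap, Kdelr3 to Kdelr2, at −3.46, −3.99, −4.41 and −4.74 in KO replicates 8, 9, 17 and 24 and at −5.68, −5.20, −4.96 and −5.33 in Het replicates 6, 7, 13 and 19. In every KO library Kdelr3 took a larger part of the pair than in any Het library. The difference was 1.14 (exact permutation test, two-sided, p = 0.0286, the smallest that 70 assignments give, adjusted p = 0.229 over the 8 ratios). Without 1 library in turn it was 0.914 to 1.34, and 0.914 was the value without KO replicate 8. The other 7 ratios had differences between −0.45 for Sec24d to Sec24c and 0.77 for Sec16b to Sec16a, with adjusted p of 0.457 or more.

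KO replicate 8 was the highest of the 8 libraries for 7 members and the lowest for 9, counts that were not set beside those of all tested genes. Sec23a, an inner coat gene, stood at 181 CPM there and at 60.0 to 85.1 CPM in the other 7 libraries, while its paralogue Sec23b was lowest there, at 86.5 CPM against 109 to 146 CPM. Their log2 ratio, Sec23b to Sec23a, was −1.07 in that library and 0.45 to 0.90 in the others, so the order of the pair was reversed. In the other 3 KO libraries Sec23a, at 60.0 to 69.2 CPM, lay below every Het library (70.5 to 85.1 CPM). Its log2 fold change turned from 0.24 to −0.30 without KO replicate 8 (adjusted p = 0.385, edgeR), and to −0.23 by limma-voom with quality weights. Sec16b, the smaller paralogue of the exit-site scaffold, stood at 14.6 CPM in KO replicate 8 and at 2.78 to 7.77 CPM elsewhere. The mesenchyme markers given above were also highest in that library, and the part of those cells was not tested. Outside KO replicate 8, Sec16b was lowest in Het replicate 6, at 2.78 CPM (36 counts), and highest in Het replicate 13, at 7.77 CPM (88 counts). With a mesenchyme marker score as a covariate, 12 members were called lower in KO, against 2.53% of all genes. Sar1a, Sar1b, Sec22b, Sec24d, Tmed2, Tmed9 and Kdelr2 joined Lman1, Surf4, Uso1, Tmed3 and Bet1. Kdelr3 had a log2 fold change of 0.28 in that fit, in place of 0.92. The score was 8.00 in KO replicate 8 and 3.06 to 4.93 in the other 7 libraries. The fit therefore cannot tell mesenchyme cells apart from any other trait of that library.

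**Figure D4:**
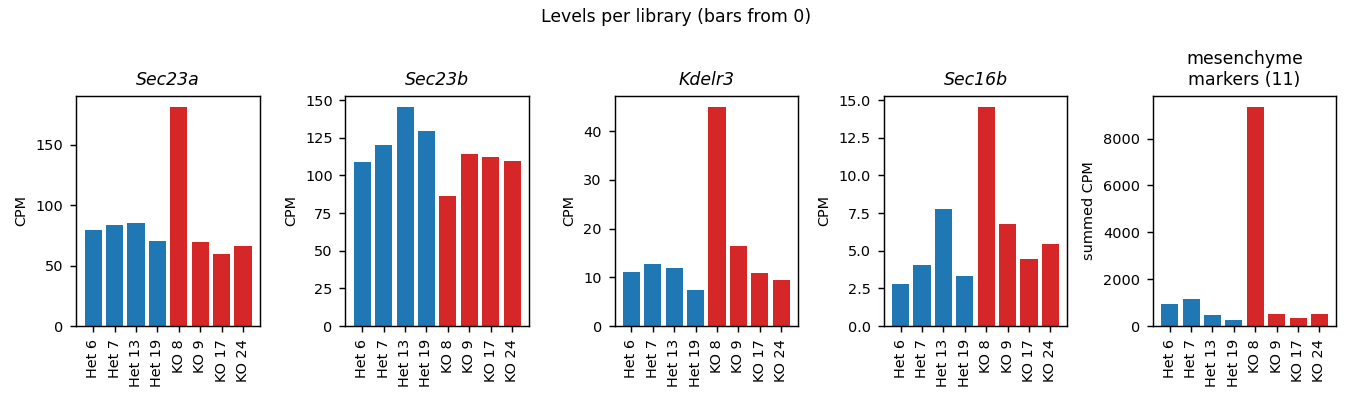
CPM of Sec23a, Sec23b, Kdelr3 and Sec16b, and the summed CPM of 11 mesenchyme markers, in each library (blue, Het; red, KO; bars start at 0). KO replicate 8 is the highest library for Sec23a, Kdelr3, Sec16b and the markers and the lowest for Sec23b.

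Within each genotype the libraries were also ordered. The 46 genes together took 1.02%, 0.965%, 0.889% and 0.815% of all counts in Het replicates 6, 7, 13 and 19, and 0.883%, 0.768%, 0.749% and 0.768% in KO replicates 8, 9, 17 and 24. In the same libraries the ribosomal RNA gene Rn45s took 0.902%, 1.84%, 2.80% and 5.54% in Het and 1.06%, 3.72%, 5.47% and 5.02% in KO. Rn45s is part of all counts, so a larger Rn45s share lowers the member share by construction. Taken over the counts without Rn45s, the member share was 1.03%, 0.983%, 0.914% and 0.862% in Het and 0.892%, 0.798%, 0.792% and 0.808% in KO, in the same library order. It still ran opposite to the Rn45s share over the 4 Het libraries, while in KO only replicate 8 stood apart, and replicate 24 lay above replicate 9 despite more Rn45s. Over all counts, KO libraries averaged a member share of 0.792 ± 0.0611% and Het libraries 0.922 ± 0.0899% (SD, n = 4), given without a test because the members were chosen with results known. Tmed2, Tmed5, Arcn1 and Kdelr2 had CPM that fell in the order of rising Rn45s share in both genotypes, 4 of 46 members, against 1.40% of all tested genes. Over the 4 Het libraries alone it held for 14 members and 8.75% of all tested genes.

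**Figure D5:**
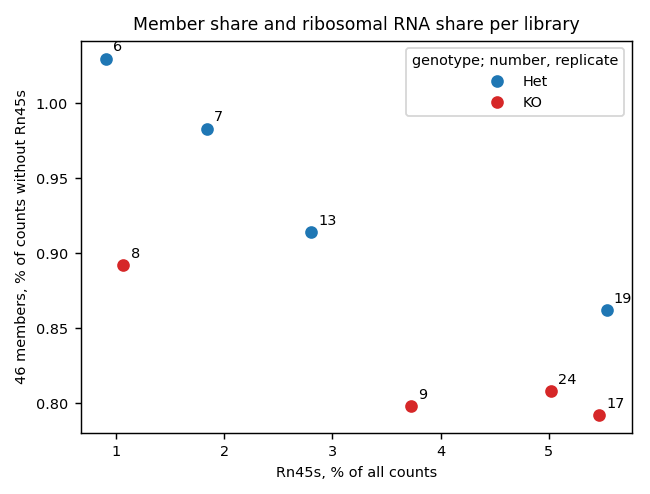
Share of the counts without Rn45s that the 46 genes took (vertical axis, percent, not starting at 0) against the share of all counts taken by Rn45s (horizontal axis, percent) in each library (blue, Het; red, KO; numbers are replicates). The 4 Het libraries go down from 1.03% to 0.862% as Rn45s grows, and in KO replicate 8 is at 0.892% while the other 3 lie between 0.792% and 0.808% in no order of Rn45s.

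The comparison was repeated with the Rn45s share as a covariate, and its part in the difference between genotypes was otherwise not tested. The median log2 fold change of the members was then −0.14 in place of −0.23, and 5 were called lower (Lman1, Surf4, Uso1, Tmed3 and Bet1), against 2.04% of all genes. With KO replicate 8 also left out, none was called and the median was −0.20. Transcript length was related to the difference between the end libraries among the members. Across the 46 genes, which share these libraries, the log2 ratio of Het replicate 6 to 19 had a Spearman correlation of −0.43 with length, and that of KO replicate 8 to 17 one of −0.23. Over 12774 tested genes with a length the same correlations were −0.080 and 0.038. Of the 23 shorter members (930 to 2074 bases), 21 were higher in Het replicate 6 than in Het replicate 19, with a median log2 ratio of 0.40, and of the 23 longer ones 12 were, with a median of 0.05. Between genotypes the shorter members had a median log2 fold change of −0.20, with 21 of 23 negative. The longer members had a median of −0.25, with 18 of 23 negative. The Spearman correlation of this fold change with length was 0.16 over the members and 0.11 over the 12774 genes. The part of length in the difference between genotypes was not tested.

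Promoter sequences were taken from RefSeq (GRCm38.p6), which gave 47 windows for 41 of the 46 members, each from 250 bases before to 50 bases after a transcript start. The letters TGACGTGG form an unfolded protein response element (UPRE) to which the stress factors ATF6 and XBP1 can bind. They occurred on either strand in the windows of 7 members (Arf1, Copb1, Copb2, Kdelr3, Sec16b, Sec23a and Sec24d), 17.1% of the 41. Counted by window, they occurred in 8 of the 47, and in 0.676% of all 32851 windows. Those 32851 windows were not limited to the tested genes or matched for base composition. The shorter CRE core TGACGT, which lies within the UPRE, occurred in 15 of 41 members (16 of 47 windows) and in 7.51% of all windows. Neither the ER stress element (CCAAT, any 9 bases, then CCACG) nor ERSE-II (ATTGG, any 1 base, then CCACG) occurred in a member window, and they occurred in 0.119% and 0.0365% of all windows. The Neurod1-type E-box CAGATG occurred in no member window and in 17.2% of all windows. The 2 stretches in which the UPRE letters lie before the RefSeq gene's 5′ end are shown from 5′ to 3′ along the gene's strand, with those letters or their reverse complement in capitals, because these letters are a feature that was not used to choose the members.

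Copb1, GRCm38.p6 chr7:114254681-114254728, minus strand: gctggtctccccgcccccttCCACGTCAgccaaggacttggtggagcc
Kdelr3, GRCm38.p6 chr15:79516358-79516405, plus strand: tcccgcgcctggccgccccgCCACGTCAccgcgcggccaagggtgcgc

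The capitals begin 28 bases before the start in Copb1 and 30 in Kdelr3. In Sec16b and Sec24d the letters begin 44 and 26 bases before a start that itself lies 63 and 2695 bases inside the RefSeq gene. Arf1 has a pair of starts, and its letters begin 84 bases before the inner one and 21 bases after the outer one. In Copb2 they reach the start, and in Sec23a they lie after it. The 7 members with these letters did not share a direction between genotypes. Arf1, Copb1, Copb2 and Sec24d had negative log2 fold changes, and Kdelr3, Sec16b and Sec23a had positive ones and were highest in KO replicate 8, without which Sec23a was negative. Of the 39 other members, 4 were highest in that library, and whether the letters relate to levels there was not tested. A match of letters is a description and does not show that a factor binds there.

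Other genes of the route and of the steps before it were read from the same fit. Of 51 tested genes of ER-Golgi transport outside the 46 (further SNAREs, tethers, Rab GTPases, Golgi matrix and coat genes), edgeR called none in either direction, 37 had a negative log2 fold change, and the median was −0.09. Before adjustment 6 had p under 0.05, all with lower KO means, against 5.80% of all tested genes, and Scfd1, the Sly1 protein that works with the Golgi syntaxin, had the smallest p (136 ± 18.6 CPM in Het and 92.2 ± 7.13 CPM in KO, SD, n = 4, with a log2 fold change by edgeR of −0.56 ± 0.14 SE and an adjusted p of 0.104). Over all tested genes 0.68% were called lower. Of 18 ER chaperones and folding enzymes, 17 had a negative log2 fold change, 10 were called lower and the median was −0.82. Manf (−1.06), Creld2 (−1.48) and Sdf2l1 (−1.39) had the smallest p. Of 22 genes of the ER translocon, signal recognition and signal peptidase, 21 were estimated lower in KO, and the median was −0.52. In this list edgeR called 2 lower, Ssr4 (−0.77, adjusted p = 0.0320) and Spcs3 (−1.11, adjusted p = 0.0397). Before adjustment 15 of the 22 had p under 0.05, all with lower KO means. Of 14 hormone and granule cargo genes, 12 were estimated lower in KO, and the median was −0.57. Here 4 were called lower, led by Cpe (−1.60), Ins1 (−3.64) and Ins2 (−1.63), and 7 had p under 0.05 before adjustment, all with lower KO means. The members' median of −0.23 lay between those of the chaperones and of the other transport genes. The difference between lists was not tested.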

How the data were processed

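RNA from 8 sorted-cell samples (2.315 ng each) was amplified with the NuGen Ovation V2 kit and sequenced as single-end reads of 100 bases, per the labels' protocols. The deposited counts are whole reads per gene symbol. The submitters' processing notes name build mm9 and, as tools, TopHat2 2.1.0, DESeq, bcl2fastq 1.8.4 and Cufflinks 2.0.2. The counting tool, its annotation and its treatment of multi-mapped reads were not given in the sources used here. Per the file headers, the authors' deposited table gives mean normalized signal per genotype, a fold ratio, its log2 and p-values.

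KO was compared with Het by edgeR 4.0.16 (R 4.3.3): filterByExpr (minimum count 10, total 15), TMM scaling, two-sided quasi-likelihood test without covariates, Benjamini-Hochberg adjustment over all 14116 genes and a threshold of 0.05. SE is the log2 fold change divided by the root of F, and 95% intervals use the test's degrees of freedom. Ratios used log2 CPM with a prior count of 2 and exact permutation tests. Alternatives used DESeq2 1.42.0 and limma 3.58.1. Both fits with the Rn45s covariate were added after the data had been seen. Members, lists and tests were chosen with earlier results of these data known, so the lists are not independent evidence of their direction. Every library value is given for the 12 members with the smallest p and the first of each role; Kdelr2 and the genes highest or lowest in KO replicate 8 were added after their values were seen. The method was run on simulated counts with planted changes larger than the members' estimates. That run therefore does not measure how well differences of the members' size are found. No library pair agreed within sampling noise (lowest chi-square per degree of freedom 18.2). Of the members, 11 share exon sequence with a gene on the opposite strand in GENCODE vM21, used for lengths and overlaps only.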

Additional observations from a re-analysis of the deposited data

Results flagged for a closer look

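In 14 of 110 groups of 4 libraries, 1 library lay further from the rest than Dixon's critical value of 0.829 allows (gap over range, on log2 CPM for genes). Chance flags about 1 in 20 such groups, and groups that share libraries are not independent. KO replicate 8 was the distant library in 10 of the 14.

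KO replicate 8 was high for Sec23a (181 CPM, other KO libraries 60.0 to 69.2), Tmed2 (129.8 CPM, others 73.1 to 78.9), Tmed9 (226 CPM, others 121 to 129), Bet1 (61.2 CPM, others 43.8 to 45.2), Arf4 (537 CPM, others 276 to 308) and Kdelr2 (498 CPM, others 234 to 264). It was low for Sec23b (86.5 CPM, others 109.5 to 114). Its log2 ratio of Sec23b to Sec23a was −1.07 (others 0.72 to 0.90), and that of Arf4 to Arf1 was 0.73 (others −0.22 to −0.09). The members took 0.883% of its counts, and 0.749% to 0.768% in the other KO libraries. The same library held the most mesenchyme marker RNA and the lowest Rn45s share of the KO group, and their part in these values was not tested.

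The other 4 were scattered. Lman1 was low in KO replicate 17 (313 CPM, others 349 to 357), and Tmed1 was low in KO replicate 24 (7.46 CPM, others 12.97 to 14.5). In Het, Copz1 was high in replicate 6 (193 CPM, others 166 to 168) and Arcn1 low in replicate 19 (274 CPM, others 365 to 378).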

How the results depend on the processing

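No paired analysis was run, because the labels give no pairing of libraries and the genotypes share no replicate numbers. The main counts were 144 genes and 0 members. All genes called numbered 520 (DESeq2), 500 (limma-voom, quality weights), 69 with an acinar covariate, 574 with a mesenchyme covariate, 28 with the Y-linked genes as a covariate, 26 against a fold of 1.5, 574 with the Rn45s covariate, 217 with that covariate and no KO replicate 8, and 29 to 285 with 1 library left out. Members called lower numbered 6 (DESeq2), 1 (limma-voom), 6 (the latter with quality weights), 1 with a filter of 2 CPM in 4 libraries, 12 with the mesenchyme covariate, 5 with the Rn45s covariate, and 0 to 4 with 1 library left out; no member was called higher under any of the 22 alternatives. The cause of these differences was not tested. By total counts 34 of 46 members were negative, against 39 by TMM, and the median of all genes was 0.09. The 14 genes whose values are given for every library by rule kept their direction in all of those fits, but not their size. Without Het replicate 6 the log2 fold changes of Sec13, Sar1b and Tmed2 shrank to −0.079, −0.42 and −0.50, and with the Rn45s covariate and no KO replicate 8 to −0.11, −0.30 and −0.28. Sec23a, outside that rule, turned negative in 5 of the fits. Small paralogue differences changed sign with 1 library left out: Copz2 to Copz1 ranged from −0.34 to 0.29, Arf4 to Arf1 from −0.27 to 0.045 and Sec23b to Sec23a from −0.53 to 0.13. At these totals counting error is largest for Sec16b, Sec22a, Tmed1 and Kdelr3.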
